A study of Mus musculus with 15 samples.

Results

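The difference between the effect of a Klf3 knockout in TER119+ and in TER119- fetal liver cells was measured as an interaction. For each gene it was the KO minus WT difference in TER119+ cells minus the KO minus WT difference in TER119- cells, on the log2 scale. All 15 arrays of the series entered it, 7 of TER119+ cells and 8 of TER119- cells. It was computed for 19938 genes, each represented by the probe set with the highest mean among those with 1 gene symbol, out of 35399 probe sets on the Affymetrix MoGene 1.0 ST array. A value of 1 means a KO to WT ratio 2 times as large in TER119+ as in TER119- cells. A positive value does not by itself say in which population the gene moved, so the KO effect in each population is given beside it.

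The cells came from E14.5 fetal livers of FVB/NJ mice and were sorted magnetically on TER119, a surface antigen that red cell precursors gain as they mature. There were 4 arrays of WT TER119-, 4 of Klf3 KO TER119-, 4 of WT TER119+ and 3 of Klf3 KO TER119+ cells. TER119+ cells had been retained on a positive selection column, and TER119- cells were what a depletion column let through. The labels give no other allele or treatment, and name neither the deleted part of Klf3 nor whether replicates were separate embryos, litters or pools, so p-values measure the spread between these arrays, which may be partly technical.

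KLF3 is a zinc finger protein of the Krüppel-like factor (KLF) family that binds CACCC-type sequences and, through the corepressor CtBP, usually lowers transcription. KLF1, the erythroid activator of the same family, binds similar sequences, and Klf3 and Klf8 are among the genes that KLF1 is known to activate in red cell precursors. Earlier work on the knockout describes Klf8, C1qtnf12 (also called Fam132a) and Lgals3 as genes that KLF3 holds down. The comparison asks for which genes the knockout effect differs between the TER119+ and TER119- fractions.

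The populations matched their labels in part. Slc4a1, the anion exchanger of the red cell membrane, had group means of 13.27 and 13.20 in KO and WT TER119+ cells against 8.40 and 7.87 in KO and WT TER119- cells. Kit, a receptor of early progenitors, was at 9.27 and 9.04 in KO and WT TER119- cells against 6.36 and 6.56 in TER119+ cells. The mean of 30 hepatocyte-lineage markers was 10.14 in WT TER119+ and 10.24 in KO TER119+ cells, with arrays between 9.79 and 10.46. It was 6.6 in WT TER119- and 6.0 in KO TER119- cells, with arrays between 5.48 and 7.33, so RNA of liver cells was higher in the TER119+ arrays. Alb, the defining gene of that list, had an interaction of 1.08 ± 0.67 (SE, adjusted p = 0.999). An earlier description of these data found 3 TER119- arrays to stand apart, namely WT replicates 2 and 4 and KO replicate 4. Results that they decide are given with and without them. By Xist and Y-linked genes, 4 of 4 WT TER119- arrays were male and 3 of 4 KO TER119- arrays female, while the TER119+ groups held both sexes. Sex and genotype thus nearly coincided in TER119- cells. A call lost below with sex as a factor cannot be assigned to either.

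The Klf3 probe set itself did not separate the genotypes. It read 8.80, 8.22, 8.55 and 7.94 in WT TER119- arrays and 8.02, 8.49, 8.74 and 8.09 in KO TER119- arrays. In TER119+ arrays it read 10.37, 9.94, 10.50 and 10.08 in WT and 10.55, 10.34 and 10.52 in KO. The genotypes overlapped in both populations, and the interaction was 0.28 (95% interval -0.31 to 0.88, adjusted p = 0.999). Klf3 was 1.85 higher in TER119+ than in TER119- cells of WT on the log2 scale. The labels do not name the deleted part, so whether this probe set covers it is not known. It could not check the genotype, and KO below means labelled KO.

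Of the 19938 genes, 87 passed an adjusted p of 0.05 for the interaction, which is 0.436% (moderated test of limma, p adjusted by the Benjamini-Hochberg method over all genes). The interaction was positive for 74 of them (0.371%) and negative for 13 (0.0652%). An unadjusted p under 0.05 was reached by 852 genes, or 4.27%. The KO to WT ratio differed between populations by at least 1.5-fold for all 87, 59 by at least 2-fold and 15 by at least 4-fold, and these 15 were all positive. The median standard error was 0.185, and the smallest interaction that passed was 0.61. Without the 3 arrays that stand apart 104 genes passed, 75 of them among the 87, and with sex as a factor 60 passed, 59 of them among the 87. At the threshold, Dync1li2 (1.33, adjusted p = 0.0421) and Zfp78 (0.61, 0.0478) lay just inside, and Ikbkg (-0.79, 0.051) and D930028M14Rik (0.74, 0.0525) just outside.

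The 74 positive genes were, with few exceptions, genes higher in KO in TER119+ cells and little different in TER119- cells. Their median KO effect was 1.43 in TER119+ cells and 0.07 in TER119- cells, where single genes ranged from -0.29 to 1.06. All KO arrays lay above all WT arrays in TER119+ cells for 74 of 74. Groups did not overlap there, in either direction, for 10.1% of all genes tested. The 74 were picked by a test on these same arrays, so the separation describes them and is not further evidence. In TER119- cells the groups did not overlap for 11 of 74, against 2.63% of all genes tested. Taken by the calls within each population, 69 were called for KO against WT in TER119+ cells alone, 4 in both populations in the same direction (Rragd, Klf8, C1qtnf12 and Arl15), and 1 in neither (Zfp78). For comparison, 203 genes (1.02%) were called for KO against WT in TER119+ cells and 17 (0.0853%) in TER119- cells, 180 (0.903%) and 15 (0.0752%) of them higher in KO.

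**Figure D1:**
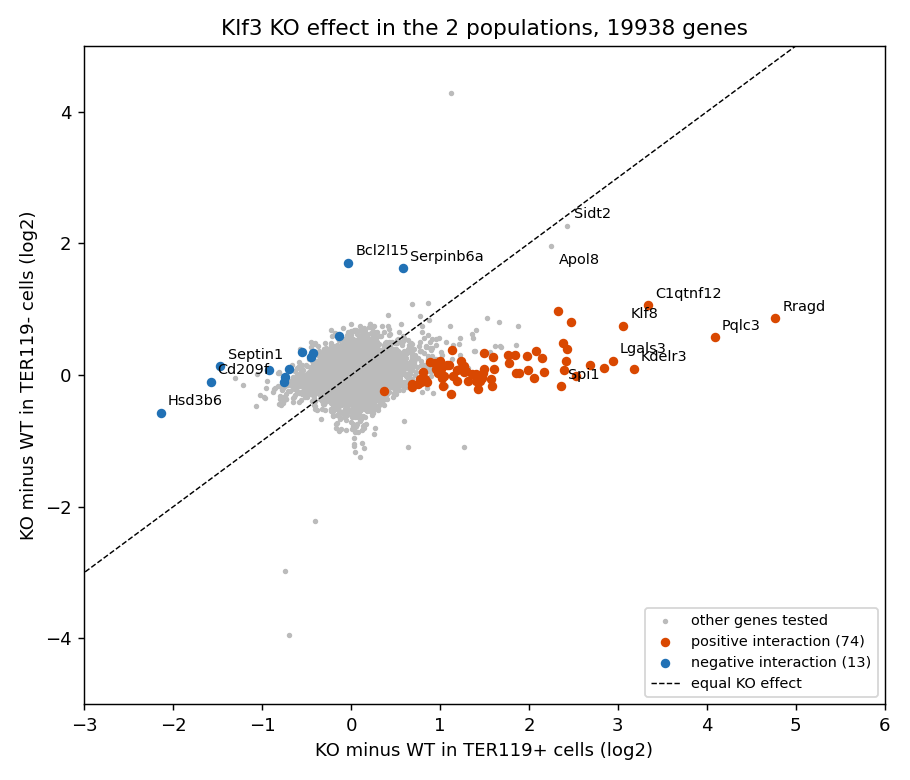
KO minus WT difference on the log2 scale in TER119+ cells (x axis) and in TER119- cells (y axis) for 19938 genes, with the 74 genes of positive interaction in orange, the 13 of negative interaction in blue, and a dashed line where both effects are equal. The orange genes spread along the x axis up to Rragd at 4.77 while staying between -0.29 and 1.06 on the y axis, Sidt2 and Apol8 lie near the dashed line, and the grey point at the top is the sex-linked Xist at 4.29.

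The interaction was largest for Rragd, which encodes RagD, a small GTPase that carries amino acid signals to mTORC1 at the lysosome. Rragd read 4.63, 4.78, 4.51 and 4.79 in WT TER119- arrays and 5.21, 5.71, 5.96 and 5.28 in KO TER119- arrays. In TER119+ arrays it read 4.71, 4.69, 4.80 and 4.53 in WT and 9.50, 9.40 and 9.44 in KO. Both WT groups sat at the same low level, every KO array lay above them, and the 3 KO TER119+ arrays stood far above the 4 KO TER119- arrays. KO was 27.2-fold over WT in TER119+ cells and 1.82-fold in TER119- cells, an interaction of 3.90 ± 0.20 (SE, adjusted p = 4.48e-08). Pqlc3, a membrane protein of the PQ-loop family, followed with 17-fold against 1.5-fold. Its levels were 6.77, 6.79, 6.78 and 6.24 in WT TER119-, 7.18, 7.25, 7.45 and 7.05 in KO TER119-, 6.78, 6.38, 6.51 and 6.53 in WT TER119+, and 10.84, 10.57 and 10.50 in KO TER119+ arrays. The KO arrays did not overlap WT in either population, but the TER119- difference of 0.58 did not pass (adjusted p = 0.256), and the interaction was 3.51 ± 0.20 (adjusted p = 5.7e-08).

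Rragd and Pqlc3 were the members called for the interaction among 53 measured genes of lysosome function and mTORC1 signalling. Of the 53, 4 were called higher in KO in TER119+ cells (Rragd, Pqlc3, Sidt2 and Acp5) and 3 in TER119- cells (Rragd, Sidt2 and Acp5). Over all genes tested, 0.903% were called higher in KO in TER119+ and 0.0752% in TER119- cells, and 0.436% for the interaction. The list was chosen with earlier results of these data known, so these counts are not independent evidence. For the interaction none of the 53 had a negative call, and the median of the list was -0.01 against 0.00 over all genes tested.

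Kdelr3 encodes a receptor that returns escaped chaperones from the Golgi to the endoplasmic reticulum. It read 4.36, 4.38, 4.10 and 4.44 in WT TER119-, 4.49, 4.34, 4.29 and 4.55 in KO TER119-, 4.29, 4.13, 3.99 and 4.60 in WT TER119+, and 7.84, 7.01 and 7.46 in KO TER119+ arrays. The other 3 groups overlapped near the bottom of the array's range, and the KO TER119+ arrays alone were high. The interaction was 3.08 ± 0.24 (adjusted p = 1.03e-06). Supt3, a subunit of the SAGA coactivator complex, differed from Kdelr3 in that WT cells already carried it. Its WT arrays read 7.55, 7.41, 7.47 and 7.16 in TER119- and 6.74, 7.24, 6.76 and 6.90 in TER119+ cells. Its KO arrays read 7.71, 7.61, 7.31 and 7.40 in TER119- and 9.89, 9.65 and 9.71 in TER119+ cells. Genotypes overlapped in TER119- cells and lay apart in TER119+ cells, with an interaction of 2.73 ± 0.19 (adjusted p = 6.42e-07).

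The promoters of these 4 genes, which had the largest interactions among those with an entry, are shown because KLF proteins bind CACCC-type sequences. Each runs 5′ to 3′ on the gene's strand from 250 bases before to 50 after the RefSeq start in GRCm38.p6, and capitals mark CACCC or, for a match on the other strand, GGGTG. The windows are chr4:32982748-32983047 (plus strand) for Rragd, chr12:17000069-17000368 (minus strand) for Pqlc3, chr15:79516158-79516457 (plus strand) for Kdelr3 and chr17:44776916-44777215 (plus strand) for Supt3.
Rragd: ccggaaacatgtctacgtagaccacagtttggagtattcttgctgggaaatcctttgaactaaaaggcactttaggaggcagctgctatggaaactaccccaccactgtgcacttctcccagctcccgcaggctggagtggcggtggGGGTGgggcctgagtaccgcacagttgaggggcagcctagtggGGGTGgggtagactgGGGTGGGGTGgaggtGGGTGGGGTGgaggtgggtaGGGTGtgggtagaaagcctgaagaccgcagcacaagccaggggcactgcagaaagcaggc
Pqlc3: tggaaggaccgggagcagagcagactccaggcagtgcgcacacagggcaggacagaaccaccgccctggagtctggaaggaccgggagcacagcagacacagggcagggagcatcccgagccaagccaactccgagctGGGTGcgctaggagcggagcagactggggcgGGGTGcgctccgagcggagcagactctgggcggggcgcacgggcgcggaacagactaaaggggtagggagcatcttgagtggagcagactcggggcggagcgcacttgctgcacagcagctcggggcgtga
Kdelr3: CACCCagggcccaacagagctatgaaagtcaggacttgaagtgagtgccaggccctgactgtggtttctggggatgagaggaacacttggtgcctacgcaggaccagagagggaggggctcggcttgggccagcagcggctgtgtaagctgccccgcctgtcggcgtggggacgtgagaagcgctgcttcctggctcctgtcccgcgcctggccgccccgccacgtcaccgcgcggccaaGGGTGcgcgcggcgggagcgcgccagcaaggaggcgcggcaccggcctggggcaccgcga
Supt3: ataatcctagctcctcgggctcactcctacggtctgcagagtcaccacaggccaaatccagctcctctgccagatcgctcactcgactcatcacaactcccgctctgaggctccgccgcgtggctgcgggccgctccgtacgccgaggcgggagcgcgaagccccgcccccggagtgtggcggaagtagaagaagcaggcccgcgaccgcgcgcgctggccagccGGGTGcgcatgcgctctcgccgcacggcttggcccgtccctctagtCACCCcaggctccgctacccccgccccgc

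The Rragd window held 7 matches to CACCC, all on the strand opposite to the gene and between 103 and 10 bases before the start, and the other 3 windows held 2 each. CCNCNCCC, a longer form that can overlap a CACCC match, was found 7 times in Rragd, 3 times in Pqlc3, once in Kdelr3 and 3 times in Supt3, on both strands together. AGATAA, the core of a GATA site, was in none of the 4. Of 78 windows listed for 58 of the 74 positive genes, 73.1% held CACCC. The share was 57.5% of all 32851 windows listed and 75% of 12 windows of 10 negative genes. The 32851 windows cover 27025 gene symbols, tested here or not, and were not matched for base content. For CCNCNCCC the shares were 75.6%, 49.5% and 58.3%, and for AGATAA 6.41%, 11.2% and 16.7%. These are descriptions of the letters in the windows and not of binding.

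The 3 genes of the KLF3-repressed list all had a positive interaction, with a median of 2.31. They were listed because studies of this knockout had reported them, possibly from these arrays, so their direction is not independent evidence. Klf8, itself a repressor of the KLF family, read 4.85, 4.97, 5.31 and 4.77 in WT TER119-, 5.85, 5.68, 5.84 and 5.54 in KO TER119-, 4.69, 4.77, 4.74 and 4.66 in WT TER119+, and 7.62, 7.86 and 7.84 in KO TER119+ arrays. KO arrays were above WT arrays in both populations, by 1.69-fold in TER119- and 8.34-fold in TER119+ cells, and the interaction was 2.31 ± 0.17 (adjusted p = 8.6e-07).

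C1qtnf12, a secreted protein related to adiponectin, read 7.19, 7.01, 7.26 and 7.05 in WT TER119- and 8.37, 8.10, 8.40 and 7.87 in KO TER119- arrays. In TER119+ cells it read 5.68, 5.73, 5.60 and 5.45 in WT and 9.09, 8.89 and 8.89 in KO. WT TER119+ arrays were the lowest and KO TER119+ arrays the highest, so the KO effect of 3.34 in TER119+ cells, against 1.06 in TER119- cells, started from a lower level. The interaction was 2.29 ± 0.17 (adjusted p = 1.03e-06).

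Lgals3, which encodes the sugar-binding protein galectin-3, differed from the others of its list in TER119- cells. There the genotypes overlapped, at 7.01, 7.48, 7.16 and 7.51 in WT and 7.86, 7.32, 7.20 and 7.65 in KO. In TER119+ cells WT read 7.66, 7.54, 7.54 and 7.56 and KO 10.62, 10.47 and 10.48, which is 7.70-fold. The interaction was 2.73 ± 0.21 (adjusted p = 1.03e-06).

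Within the KLF and SP family of 25 measured genes, Klf8 alone had a call and the median interaction was 0.08. Among 16 genes for partners of KLF3, such as the CtBP corepressors, none was called (limma's test) and the median was -0.05. Over all genes tested 0.436% were called, so lists of these sizes would hold few calls or none. Klf8 was also the one called gene of 35 listed as activated by KLF1, whose median was -0.25 with 8 of 35 above 0. The KLF1 list's mean over arrays was 10.35 in WT and 10.52 in KO TER119+ cells, and 7.73 in WT and 8.05 in KO TER119- cells.

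**Figure D2:**
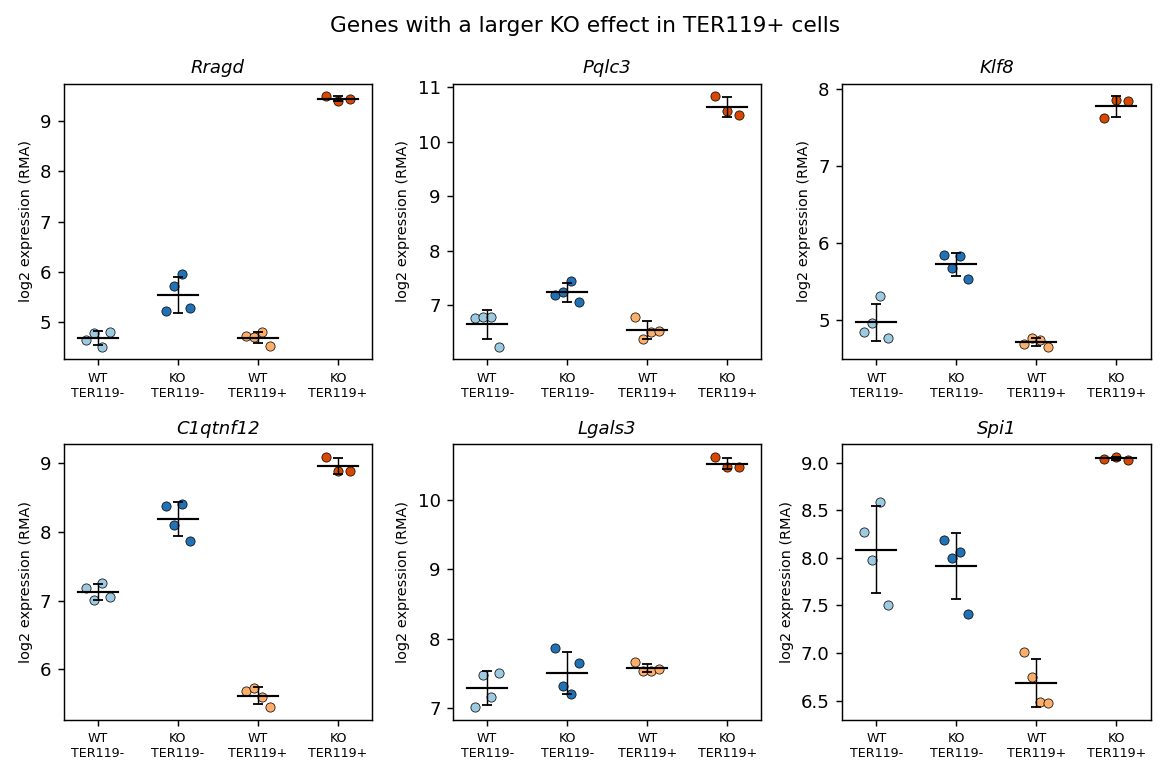
Log2 expression on each array (points) with the group mean and SD (bars) for Rragd, Pqlc3, Klf8, C1qtnf12, Lgals3 and Spi1 in the 4 groups. In each panel the 3 KO TER119+ arrays are the highest, and for Rragd, Pqlc3, Klf8 and C1qtnf12 the KO TER119- arrays lie above WT TER119- as well.

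Spi1, which encodes PU.1, a transcription factor of myeloid and lymphoid cells that opposes GATA1 in red cell precursors, was the called gene among 37 erythroid transcription regulators, whose median interaction was -0.11, and among 39 myeloid genes. It read 8.27, 7.98, 8.59 and 7.51 in WT TER119- and 8.19, 8.0, 8.06 and 7.41 in KO TER119- arrays. In TER119+ cells it read 7.01, 6.75, 6.49 and 6.48 in WT and 9.04, 9.06 and 9.03 in KO. The genotypes overlapped in TER119- cells, and in TER119+ cells the KO arrays lay above every other array of the series. The interaction was 2.53 ± 0.30 (adjusted p = 0.000216).

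The other 38 myeloid genes were not called, and the list had a median interaction of 0.30, with 34 of 39 above 0. Its mean over arrays was 5.94 in WT and 6.13 in KO TER119+ cells, with arrays from 5.85 to 6.23. In TER119- cells that mean was 8.60 in WT and 8.39 in KO. The median KO effect of the list was 0.12 in TER119+ cells, with 29 of 39 above 0. It was -0.19 in TER119- cells, with 6 of 39 above 0, so both populations entered the median interaction. The 23 neutrophil and granulocyte precursor markers, with 0 calls by limma's test, had a median of 0.44, and their mean was 4.94 in WT and 5.07 in KO TER119+ against 9.33 and 9.03 in TER119- cells. The part of these cells in the Spi1 result was not tested. In bulk arrays, more cells of a type and more RNA per cell cannot be told apart.

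Cttnbp2nl, a cortactin-binding protein homologue, rose from 6.06, 6.12, 5.94 and 6.36 in WT TER119+ to 8.76, 8.88 and 8.79 in KO TER119+ arrays. In TER119- cells it read 5.06, 5.21, 5.02 and 5.21 in WT and 5.34, 5.27, 5.36 and 5.14 in KO, which overlapped, and the interaction was 2.54 ± 0.14 (adjusted p = 5.7e-08). Hydin, a gene of motile cilia, had 12 arrays between 4.36 and 4.85 and 3 KO TER119+ arrays at 7.18, 6.94 and 7.01 (2.55 ± 0.16, adjusted p = 2.13e-07). The uncharacterised 9530077C05Rik had the same shape, with KO TER119+ arrays at 7.42, 7.23 and 7.14 and the other 12 between 4.71 and 5.45 (2.31 ± 0.17, adjusted p = 8.6e-07).

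Atl1, which encodes atlastin-1, a GTPase that fuses endoplasmic reticulum tubules, had an interaction of 2.12 ± 0.22 (adjusted p = 5.55e-05). KO TER119+ arrays read 8.03, 7.70 and 7.52 against 5.58, 5.67, 5.63 and 5.87 in WT, and the TER119- effect was -0.05. Klhl2, an actin-associated adaptor of a ubiquitin ligase, spread more widely in TER119- cells, from 6.08 to 7.11 over both genotypes. Its KO TER119+ arrays at 8.17, 7.86 and 7.97 lay above all of these, and its interaction was 2.13 ± 0.31 (adjusted p = 0.002).

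Prune2 had an interaction of 2.20 ± 0.25 (adjusted p = 0.000169) on the probe set used, with 7.63, 7.52 and 7.44 in KO TER119+ arrays against 5.17, 4.98, 5.21 and 5.08 in WT. A second probe set of Prune2 gave 0.04 ± 0.22 (adjusted p = 1), so the probe sets disagree. Of the other called genes with a further probe set, 3110040M04Rik gave 1.80 there as well, Tmsb10 gave 0.69 without a call (adjusted p = 0.283), and Cfap57 gave 0.09.

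Among 38 apoptosis genes 1 had a positive and 1 a negative call, and the median was 0.04. Dffb, the nuclease that cuts DNA between nucleosomes in dying cells, read 5.61, 5.29, 5.47 and 4.90 in WT TER119- and 6.15, 6.23, 6.26 and 5.81 in KO TER119- arrays. In TER119+ cells it read 5.60, 5.27, 5.70 and 5.25 in WT and 8.04, 7.92 and 7.80 in KO. KO arrays lay above WT in both populations, with 5.53-fold in TER119+ cells and 1.74-fold, short of the threshold (adjusted p = 0.0742), in TER119- cells. The interaction was 1.67 ± 0.23 (adjusted p = 0.000895).

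Arl15, a small GTPase of the ARF family, was called in both populations, by 5.04-fold in TER119+ and 1.97-fold in TER119- cells. It read 7.07, 7.08, 7.32 and 6.57 in WT TER119-, 7.50, 8.15, 8.26 and 8.03 in KO TER119-, 6.62, 6.76, 6.65 and 6.67 in WT TER119+, and 8.91, 8.84 and 9.27 in KO TER119+ arrays. The groups did not overlap in either population. Its interaction of 1.36 ± 0.25 (adjusted p = 0.0167) lost its call with sex as a factor (0.0611) and without KO TER119+ replicate 3 (0.0725).

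Cd59b, of the CD59 family of complement inhibitors, was the called gene of 34 listed for the red cell membrane, whose median was -0.24 with 9 of 34 above 0. Its interaction of 1.12 ± 0.21 (adjusted p = 0.0248) kept its call in 10 of 15 fits that each left out 1 array, and had an adjusted p of 0.1 without the 3 arrays that stand apart. Rsad2, which encodes the antiviral protein viperin, was the called gene of 25 interferon response genes, whose median was 0.03. It was already much higher in TER119+ than in TER119- cells of WT, by 5.24, and in KO the difference was 6.65. Its TER119+ arrays read 10.34, 10.79, 10.65 and 10.25 in WT and 11.87, 11.62 and 11.38 in KO, and all TER119- arrays lay between 4.84 and 5.45. The interaction was 1.41 ± 0.21 (adjusted p = 0.0031).

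Among 30 macrophage markers, Folr2 and Cd209f moved in opposite directions. Folr2, a folate receptor, read 5.98, 5.67, 5.88 and 5.61 in WT and 6.71, 6.93 and 6.85 in KO TER119+ arrays, with an interaction of 1.07 ± 0.17 (adjusted p = 0.00462). Cd209f, a C-type lectin, read 5.41, 6.44, 5.48 and 5.48 in WT TER119+ arrays, of which replicate 2 was the highest, and 4.07, 4.17 and 4.15 in KO. In TER119- cells all its arrays lay between 3.87 and 4.20. The interaction was -1.48 ± 0.26 (adjusted p = 0.0115), and -1.41 with an adjusted p of 0.0947 without the 3 arrays that stand apart.

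The median over the 30 macrophage markers was -0.04. Their mean was 7.68 in WT and 7.57 in KO TER119+ cells, with arrays from 7.48 to 7.80, and 5.49 in WT and 5.42 in KO TER119- cells. Of the defining markers, Adgre1 had an interaction of 0.03 ± 0.25, Vcam1 of 0.36 ± 0.21 and Timd4 of -0.41 ± 0.16, each with an adjusted p of 0.999.

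Mir144, named here after its values were seen, is the gene of a microRNA abundant in red cell precursors. It read 7.08, 6.73, 7.26 and 7.11 in WT and 7.92, 8.08 and 8.06 in KO TER119+ arrays, and between 4.82 and 5.32 in TER119- arrays. KO lay above WT in TER119+ cells alone, and the interaction was 0.95 ± 0.18 (adjusted p = 0.0285). Its call held in 6 of 15 fits that left out 1 array, with an adjusted p of up to 0.117. The mature strands were not measured separately. They are shown as RefSeq lists them (GRCm38.p6), with the seed, bases 2 to 8, in capitals, because a microRNA finds its targets through the seed and the seeds of the strands differ. The first lies at chr11:78073010-78073032 and the second at chr11:78073047-78073066, both on the plus strand.
mmu-miR-144-5p: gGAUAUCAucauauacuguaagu
mmu-miR-144-3p: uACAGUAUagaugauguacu

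The same interaction can be read as a change in how far the populations differ. In WT, 10486 genes (52.6%) differed between TER119+ and TER119- cells, and in KO 9777 (49%). Of the 74 positive genes, 24 did not differ between populations in WT and were higher in TER119+ cells in KO, among them Rragd (0.01 in WT, 3.91 in KO), Pqlc3 (-0.10 and 3.41), Lgals3 (0.29 and 3.02) and Klf8 (-0.26 and 2.05). A further 25 were higher in TER119+ cells in both genotypes.

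In 15 positive genes the order of the populations turned. They were lower in TER119+ than in TER119- cells in WT and higher in KO. Spi1 went from -1.40 in WT to 1.13 in KO, and C1qtnf12 from -1.51 to 0.77. Cbr1, a carbonyl reductase, went from -0.94 to 1.09, with WT TER119+ arrays at 6.15, 6.42, 6.05 and 6.47 and KO TER119+ arrays at 8.68, 8.70 and 8.71. Supt3, Prune2, Klhl2, Znrf2, Tppp3 and Epha8 were of the same class.

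In 10 further positive genes the level in WT was lower in TER119+ than in TER119- cells, and this difference was smaller in KO. For 6 the populations no longer differed by the test in KO, such as Gng2, a G protein gamma subunit (-1.19 in WT, 0.20 in KO), the zinc finger gene Zfp62 (-1.18 and 0.04) and Bag1, a co-chaperone of HSP70 (-1.02 and -0.10). For 4 they still did, such as Agtpbp1, a carboxypeptidase that trims tubulin tails (-1.94 and -0.40), and the translation factor Eif1b (-1.99 and -1.21). Gng2 read 6.88, 6.76, 7.0 and 6.79 in WT TER119+ and 8.28, 8.39 and 8.10 in KO TER119+ arrays, and from 7.73 to 8.29 in the 8 TER119- arrays. The KO TER119+ level of Gng2 thus lay within or near the TER119- range, and the WT TER119+ arrays were the ones apart.

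**Figure D3:**
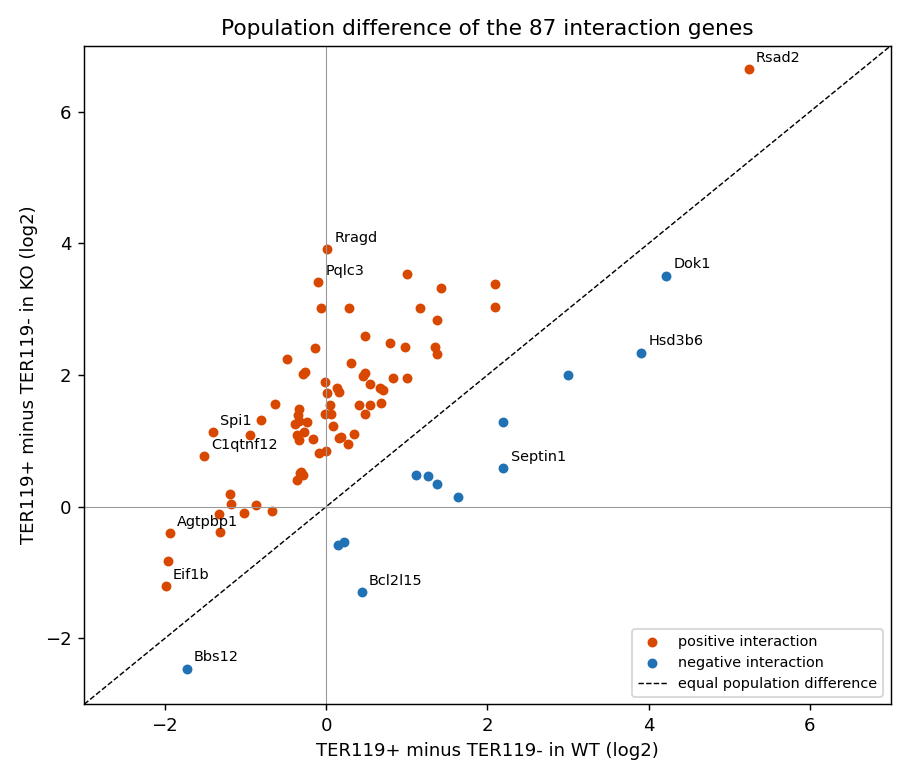
TER119+ minus TER119- difference on the log2 scale in WT (x axis) and in KO (y axis) for the 87 genes of the interaction, orange for positive and blue for negative, with a dashed line where both are equal. Orange genes above 0 on the y axis and below 0 on the x axis, such as Spi1 (-1.40 and 1.13), are higher in TER119- cells in WT and in TER119+ cells in KO.

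The level of a gene limits what an array can show. Of the 74 positive genes, 21 (28.4%) had both WT means under 5.39, the median level of all genes, which was so for 43.7% of all genes tested. For 3 all 4 group means lay under it. Differences between dim signals are compressed by the RMA processing named in the submitters' notes. On the linear scale the difference of differences kept its sign for 87 of 87 genes.

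The 13 negative genes fell into several patterns, with a median interaction of -0.90 and median KO effects of -0.70 in TER119+ and 0.14 in TER119- cells. By the calls in each population, 8 were lower in KO in TER119+ cells alone, 3 were higher in KO in TER119- cells alone (Bcl2l15, Serpinb6a and Bbs12), and 2 were called in neither (Sry and Gstm5). The negative count was less stable than the positive one. It was 4 without KO TER119+ replicate 3, 5 without KO TER119- replicate 3, 6 without KO TER119+ replicate 1 or 2, WT TER119+ replicate 2 or 4, or WT TER119- replicate 2, 7 without WT TER119+ replicate 1 or KO TER119- replicate 1, and 8 without WT TER119- replicate 4. Bcl2l15, Septin1, Cd209f and Dcaf6 were called in all 15 fits that left out 1 array.

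Bcl2l15, a little studied member of the BCL2 family, had the most negative interaction, -1.74 ± 0.17 (adjusted p = 3.43e-05). It read 5.36, 5.39, 5.64 and 5.49 in WT TER119- and 7.17, 6.95, 7.23 and 7.36 in KO TER119- arrays. In TER119+ cells it read 6.04, 5.75, 6.06 and 5.79 in WT and 5.74, 5.79 and 6.09 in KO. KO was 3.27-fold over WT in TER119- cells, and the genotypes overlapped in TER119+ cells, where the effect was -0.03 (95% interval -0.30 to 0.23). It was higher in TER119+ than in TER119- cells in WT, by 0.44, and lower in KO, by the difference of -1.30.

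Serpinb6a, an intracellular protease inhibitor, read 7.03, 6.88, 7.53 and 6.85 in WT TER119- and 8.78, 8.53, 8.67 and 8.77 in KO TER119- arrays. In TER119+ cells it read 8.28, 8.66, 8.28 and 8.54 in WT and 8.84, 9.15 and 9.09 in KO. KO arrays lay above WT in both populations, by 1.5-fold in TER119+ and 3.07-fold in TER119- cells, with the larger effect in TER119- cells, and the interaction was -1.03 ± 0.21 (adjusted p = 0.037). Bbs12, a chaperonin-like protein of cilia, was 0.59 higher in KO in TER119- cells (adjusted p = 0.0361) and differed by -0.14 in TER119+ cells, where both genotypes were low, from 4.64 to 4.99. Its interaction was -0.72 ± 0.15 (adjusted p = 0.0384). Without the 3 arrays that stand apart the interactions of Serpinb6a and Bbs12 were -0.80 (adjusted p = 0.266) and -0.61 (0.227), and with sex as a factor -0.97 (0.141) and -0.69 (0.146).

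Septin1, a filament-forming GTPase, fell in KO in TER119+ cells, from 8.71, 8.37, 8.62 and 8.48 in WT to 7.18, 6.96 and 7.08. In TER119- cells it read 6.50, 6.21, 6.55 and 6.14 in WT and 6.58, 6.57, 6.31 and 6.49 in KO, which overlapped. The interaction was -1.61 ± 0.17 (adjusted p = 5.55e-05), and the excess of TER119+ over TER119- cells shrank from 2.20 in WT to 0.59 in KO. Hsd3b6, a steroid dehydrogenase, read 10.10, 9.22, 9.89 and 9.87 in WT and 7.63, 7.43 and 7.83 in KO TER119+ arrays. In TER119- cells it read 5.25, 5.89, 5.91 and 6.39 in WT and 5.23, 5.24, 5.10 and 5.60 in KO, so KO values were on the low side there too. Its interaction of -1.57 ± 0.31 (adjusted p = 0.0356) kept its call in 3 of 15 fits that left out 1 array and had an adjusted p of 0.134 with sex as a factor.

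Amot, which encodes the junction protein angiomotin, read 8.04, 7.46, 7.54 and 7.42 in WT and 6.56, 6.91 and 6.62 in KO TER119+ arrays, and lay between 4.58 and 4.78 in TER119- arrays (-1.0 ± 0.18, adjusted p = 0.0167). It had an adjusted p of 0.119 without the 3 arrays that stand apart, 0.0853 without KO TER119+ replicate 1 and 0.0719 without KO TER119+ replicate 3. Amot is X-linked, and with sex as a factor its interaction was -0.89 (adjusted p = 0.0617). Dcaf6, an adaptor of a ubiquitin ligase, moved both ways. Its KO arrays lay below WT in TER119+ cells (-0.55, adjusted p = 0.0192) and above WT in TER119- cells (0.35, adjusted p = 0.564), and the interaction was -0.90 ± 0.15 (adjusted p = 0.00902).

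The other 4 negative genes of the TER119+ class were Cd209f, described above, Galnt1, which starts O-linked glycosylation (-0.80), the signalling adaptor Dok1 (-0.71) and Ccdc189 (-0.64). The last 3 of these had KO effects of -0.70, -0.74 and -0.75 in TER119+ cells. For the pair called in neither population, Gstm5, a glutathione transferase, had an interaction of -0.77 from effects of -0.43 and 0.34. Sry had -0.73 from -0.45 and 0.28. Of the fits that left out 1 array, the call held in 8 of 15 for Gstm5, 4 for Galnt1 and Serpinb6a, 3 for Bbs12 and Ccdc189, and 2 for Dok1 and Sry. Ccdc189 was at -0.62 with an adjusted p of 0.135 without the 3 arrays that stand apart. Sry is Y-linked, but its probe set did not follow the sex of the arrays. The 4 WT TER119- arrays, all male, read 5.28, 5.43, 5.11 and 5.31, and the KO TER119- arrays, 3 of them female, read 5.40, 5.45, 5.67 and 5.73.

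**Figure D4:**
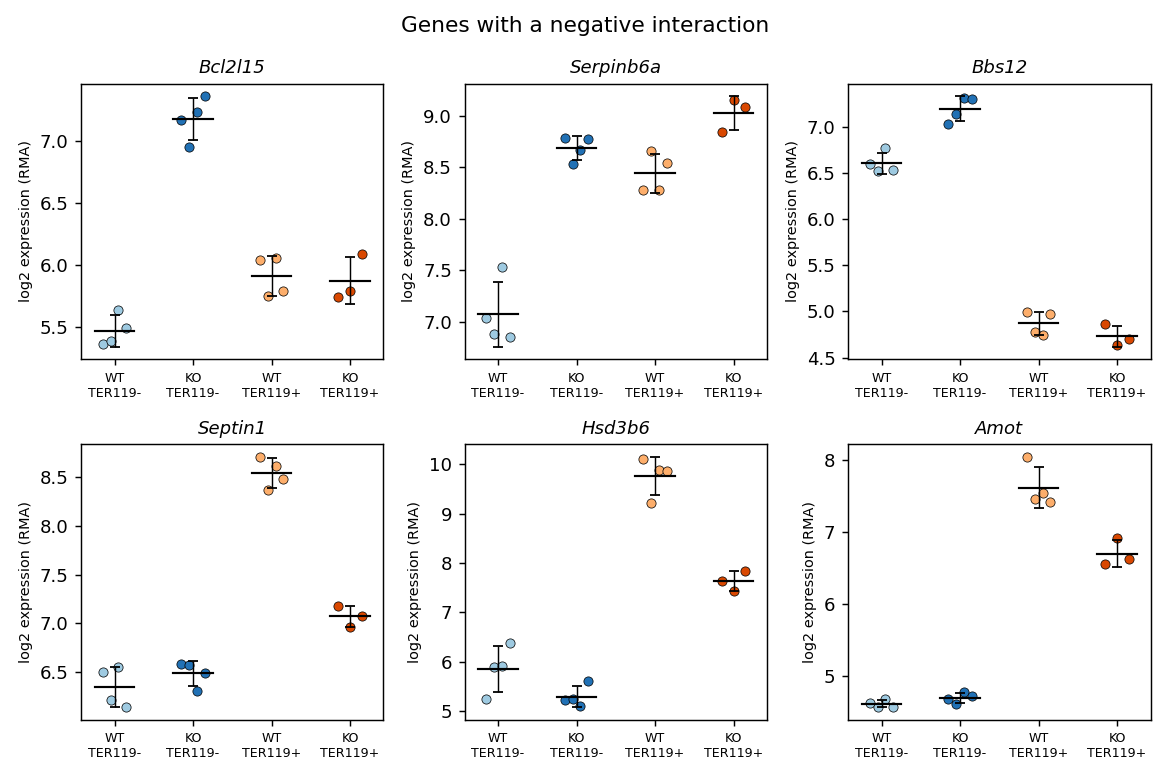
Log2 expression on each array (points) with the group mean and SD (bars) for 6 genes of negative interaction. Bcl2l15, Serpinb6a and Bbs12 (upper panels) are higher in KO than in WT in TER119- cells, and Septin1, Hsd3b6 and Amot (lower panels) are lower in KO than in WT in TER119+ cells.

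Of the 17 genes called for KO against WT in TER119- cells, 7 were also called for the interaction, and for the other 10 the difference between populations was not called. The count of 17 was 8 without KO TER119- replicate 3 or WT TER119- replicate 2, 11 without KO TER119- replicate 2 or KO TER119+ replicate 1 or 2, and 8 without the 3 arrays that stand apart. The intervals are those of the fit and take no account of how these genes were picked. They were picked by their TER119- effect, which the interaction subtracts, so the choice can shift interactions against the direction of that effect. Sidt2, a nucleic acid transporter of the lysosomal membrane, was 4.83-fold higher in KO in TER119- cells and 5.39-fold in TER119+ cells. Its interaction was 0.16, with a 95% interval from -0.55 to 0.87. It read 8.22, 7.43, 8.21 and 7.44 in WT TER119-, 9.65, 10.20, 10.78 and 9.76 in KO TER119-, 9.04, 9.07, 8.94 and 8.81 in WT TER119+, and 11.46, 11.19 and 11.54 in KO TER119+ arrays. KO arrays lay above WT arrays by a similar distance in both populations.

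Apol8, of the apolipoprotein L family, had effects of 1.96 in TER119- and 2.25 in TER119+ cells and an interval of the interaction from -0.26 to 0.86. Mgst3, a microsomal glutathione transferase, had effects of 0.89 and 0.77 and an interval from -0.44 to 0.19. For Acp5, an acid phosphatase, and Crip1, a LIM domain protein, the intervals lay above 0, at 0.28 to 1.05 and 0.42 to 1.29, though neither passed adjustment over all genes (adjusted p = 0.291 and 0.137). Acp5 had an adjusted p of 0.0475 without the 3 arrays that stand apart and 0.0241 after a further quantile normalisation. For Pir, an iron-binding nuclear protein, the interval lay below 0, at -0.63 to -0.08 (adjusted p = 0.839). For Tmem45a2 and Mir532, which were lower in KO in TER119- cells, the intervals lay above 0, at 0.09 to 0.65 (adjusted p = 0.825) and 0.08 to 0.60 (0.817). Plek2 and Zdhhc2 had interactions of -0.40 and -0.22, with intervals that held 0 (adjusted p = 0.999 for both).

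**Figure D5:**
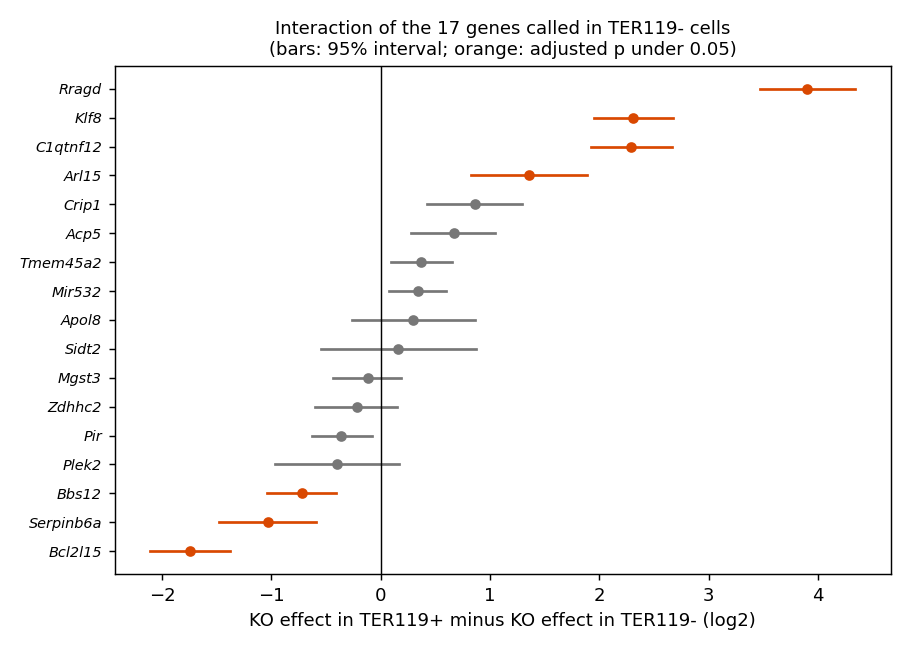
Interaction with its 95% interval (x axis, log2) for the 17 genes called for KO against WT in TER119- cells, orange where the interaction passed an adjusted p of 0.05. Rragd, Klf8, C1qtnf12 and Arl15 lie to the right of 0, Bbs12, Serpinb6a and Bcl2l15 to the left, and the interval of Sidt2 runs from -0.55 to 0.87.

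At the 0.436% called over all genes, lists of 40 genes or fewer would hold few calls or none. None of 32 genes of haem synthesis and iron handling, 32 of late clearance and enucleation, 40 of the cell cycle and 29 ribosomal proteins was called for the interaction by limma's test, and their medians were -0.09, -0.11, -0.04 and 0.01. The 6 globin genes measured (Hba-x, Hbb-bh1, Hbb-bh2, Hbb-y, Hbq1a and Hbq1b) had a median of 0.55 without a call, and ranged from -0.19 to 2.36. The adult globin genes Hba-a1, Hba-a2, Hbb-b1, Hbb-b2, Hbb-bs and Hbb-bt were not among the genes tested. For the 34 red cell membrane genes the list mean over arrays was 10.40 in WT and 10.51 in KO TER119+ cells, and 8.33 in WT and 8.61 in KO TER119- cells.

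Among the marker lists of other cell types, Folr2 and Cd209f, described above, were the interaction calls, and Spi1 was that of the myeloid gene list. The 30 hepatocyte-lineage markers had a median of 0.81 with 27 above 0, and the 23 stromal and stellate markers a median of 0.43 with 23 above 0. The 16 megakaryocyte and platelet markers had a median of -0.47 with 0 above 0. Their mean was 8.86 in WT and 8.15 in KO TER119+ cells against 8.72 and 8.43 in TER119- cells. Single TER119+ arrays lay between 8.75 and 9.01 in WT and between 7.95 and 8.38 in KO. TER119- arrays spread widely and overlapped, from 7.97 to 9.29 in WT and from 7.55 to 9.17 in KO. Medians for the remaining lists were 0.06 for 23 progenitor, 0.04 for 19 B cell, 0.05 for 15 mast cell and basophil, 0.13 for 18 T and natural killer cell and 0.12 for 23 endothelial markers. The 4 sex-linked genes, whose level follows the sex of the arrays in each group, had a median of 2.02 without a call. With the hepatocyte-lineage mean as a covariate in each population, 96 genes were called for the interaction, 78 of them among the 87. The part of the stromal and megakaryocyte lists in single genes was not tested.

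The 87 genes included 4 pairs that are neighbours in the RefSeq gene order of GRCm38.p6 when only tested genes are kept. Genes not tested may lie between them. Rragd and Ube2j1, a ubiquitin-conjugating enzyme of the endoplasmic reticulum, lie on chromosome 4 with starts 48382 bases apart. Ube2j1 had 8.54, 8.62, 8.46 and 8.49 in WT and 9.57, 9.56 and 9.68 in KO TER119+ arrays, and an interaction of 0.92 ± 0.12 (adjusted p = 0.000856). Ankrd6, on the outer side of Rragd, was not called (0.09). Setd4, a SET domain methyltransferase, and Cbr1 lie on chromosome 16 on opposite strands with starts 4022 bases apart. Setd4 read 5.17, 5.24, 5.40 and 5.34 in WT and 7.60, 7.34 and 7.37 in KO TER119+ arrays, an interaction of 1.89 ± 0.14 (adjusted p = 8.6e-07) beside 2.03 ± 0.21 for Cbr1. The next tested gene, Cbr3, of the same family as Cbr1, had -0.08, and Runx1 on the other side had -0.34.

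Fam114a2 and Mfap3 on chromosome 11 had interactions of 1.69 ± 0.19 (adjusted p = 0.000103) and 0.90 ± 0.16 (0.0115, and 0.0551 without KO TER119+ replicate 1). The zinc finger genes Zfp28 and Zfp78 on chromosome 7, with starts 20010 bases apart, had 0.85 ± 0.16 and 0.61 ± 0.13 (adjusted p = 0.0248 and 0.0478). Zfp78 was called in 1 of 15 fits that left out 1 array and Zfp28 in 7, and Zfp28 had an adjusted p of 0.0661 without the 3 arrays that stand apart. None of the tested genes flanking the 4 pairs was called, and whether neighbours share transcripts or control was not tested.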

How the data were processed

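The values were log2 expression per probe set as deposited by the authors, made with RMA and Partek per the submitters' processing notes (versions not given in the sources used here), and lay between 2.91 and 14.26. Array medians lay between 5.28 and 5.43. The labels do not say whether RMA was run on all arrays together. Of 35399 probe sets, 21789 had 1 symbol in the platform's gene table, 1621 several and 11989 none. The highest mean decided among probe sets of a gene (999 genes).

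With limma 3.58.1 (R 4.3.3), group means were fitted over all 15 arrays, with no filter and no covariate (11 residual and 4.91 prior degrees of freedom). Tests were 2-sided, adjusted by the Benjamini-Hochberg method over 19938 genes, with a threshold of 0.05. Errors are standard errors of the model. The fit was checked on simulated data. Alternatives were a replicate block, each array or the 3 arrays left out, a filter on dim genes, other probe set rules, other normalisations and priors, array weights, and sex or the hepatocyte-lineage mean as covariates. The members and gene lists were chosen with earlier results of these data known.

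Named genes were the 15 largest positive interactions and all 13 negative ones among those called, the genes called in TER119- cells, Klf3 and the KLF3-repressed genes, called members of the 26 lists, the small classes by population, and called neighbours. Promoters and microRNAs came from RefSeq tables of GRCm38.p6. Precision is limited by the 3 or 4 arrays in each group.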

Additional observations from a re-analysis of the deposited data

Results flagged for a closer look

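By a test of the difference itself, the KO effect differed between TER119+ and TER119- cells for these named genes. The positive interactions on the log2 scale were 3.90 for Rragd, 3.51 for Pqlc3, 3.08 for Kdelr3, 2.73 for Lgals3, 2.73 for Supt3, 2.55 for Hydin, 2.54 for Cttnbp2nl, 2.53 for Spi1, 2.31 for Klf8, 2.31 for 9530077C05Rik, 2.29 for C1qtnf12, 2.20 for Prune2, 2.13 for Klhl2, 2.12 for Atl1 and 2.03 for Cbr1. Below these stood 1.89 for Setd4, 1.69 for Fam114a2, 1.67 for Dffb, 1.41 for Rsad2, 1.36 for Arl15, 1.12 for Cd59b, 1.07 for Folr2, 0.92 for Ube2j1, 0.90 for Mfap3, 0.85 for Zfp28 and 0.61 for Zfp78. The negative ones were -1.74 for Bcl2l15, -1.61 for Septin1, -1.57 for Hsd3b6, -1.48 for Cd209f, -1.03 for Serpinb6a, -1.0 for Amot, -0.90 for Dcaf6, -0.80 for Galnt1, -0.77 for Gstm5, -0.73 for Sry, -0.72 for Bbs12, -0.71 for Dok1 and -0.64 for Ccdc189.

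Single arrays stood far from the others of their group, by Dixon's 95% criterion, in 4 of 150 groups of 4 arrays over the 50 named genes, where chance gives about 1 in 20. Cd209f was at 6.44 in WT TER119+ replicate 2, above the others. Folr2 was at 4.17 in WT TER119- replicate 3 and Pqlc3 at 6.24 in WT TER119- replicate 4, both below the others, and Mir532 at 4.47 in KO TER119- replicate 2, above the others.

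Outside the genes with 1 symbol, 10 probe sets passed an adjusted p of 0.05 for the interaction. Of the 11989 without a symbol, 8 were positive and 1 negative. Of the 1621 with several symbols, 1 passed, which is shared by Pirb, Pira1, Pira2 and Lilra6 of the paired immunoglobulin-like receptors and by further symbols, with an interaction of 0.96 ± 0.18 (limma, adjusted p = 0.0461).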

How the results depend on the processing

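Without each array in turn, the interaction called between 61 and 93 genes, of which 55 to 85 were positive and 4 to 12 negative, and 53 of the 87 were called in all 15 fits. KO against WT called 148 to 226 genes in TER119+ and 8 to 24 in TER119- cells, and the populations differed in 9647 to 10934 genes in WT and 8722 to 10260 in KO. The negative count fell to 8 with a filter on dim genes (a group mean of at least 6), 6 with adjustment over all probe sets and 5 with sex as a factor. The 17 genes of TER119- cells became 8 without the 3 arrays that stand apart, 10 over all probe sets, 9 with array weights, 7 with sex as a factor and 11 with the hepatocyte covariate. The 203 of TER119+ cells became 323 without the 3 arrays and 354 with array weights. On the linear scale, without a test, the differences of 3 genes not called changed sign, at 110 for Mgst3, 36.8 for Pir and 195 for Plek2. Over the 50 named genes and all alternatives, 1161 values stayed the same in direction and, where tested, in call. These include the untested values on the linear scale and named genes called in neither fit. A further 178 lost the call and 2, both of Acp5, gained it. The cause was not tested. The replicate number as a block gave 85 interaction genes, 77 of them among the 87. Of 21 same-numbered pairs, 6 had a correlation of deviations over 0.1, with a range of -0.384 to 0.654. Over the 63 other pairs the range was -0.643 to 0.652. The ranges are alike, so these correlations do not show whether the numbers pair the arrays. The block changed the interaction call of Bbs12 (adjusted p = 0.0923), Serpinb6a (0.0823), Sry (0.104), Gstm5 (0.0567) and Zfp78 (0.0604). With 3 to 4 arrays a group and a median standard error of 0.185, smaller differences between the populations were not detectable.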
